A study of Macaca mulatta with 30 samples.

Results

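A set of 10 genes of inhibitory interneurons and of neuropeptides was followed in the fetal rhesus macaque hippocampus 5 days after the mother received a corticosteroid. They were GAD1, GAD2, LHX6, PVALB, SST, NPY, VIP, CCK, CRH and SPX, and were taken from the hippocampus count table by their Ensembl rhesus symbols. Each of the 10 was matched to the first identifier with its symbol among the 32386 in the table. All 10 were tested, as were 17390 genes in all whose reads reached 7 in 5 or more libraries. The list was chosen with measured values known, and was selected on the fold changes between these same groups. The differences of its members between groups are therefore given as a description, without p-values. Whether a member was called only places it by the thresholds used for all genes, and lends its difference no support. Tests are given for genes of other lists and for the relation between members within groups. The other lists were also drawn up with earlier results of these data known, so their p-values are not independent support.

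Inhibitory interneurons release GABA, which the enzymes encoded by GAD1 and GAD2 make from glutamate. Many of those in the hippocampus arise in the medial ganglionic eminence, where the transcription factor LHX6 directs them towards the somatostatin (SST) and parvalbumin (PVALB) classes. Others carry neuropeptide Y (NPY), vasoactive intestinal peptide (VIP), cholecystokinin (CCK) or corticotropin-releasing hormone (CRH), the last best known as the hypothalamic hormone that drives the pituitary stress response. CCK is also made by excitatory neurons. SPX encodes spexin, a peptide that acts through galanin receptors.

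Time-mated pregnant animals received saline (CTL), Beta-Ac (BAC, betamethasone acetate alone) or the clinical drug (CEL, Celestone, a mixture of betamethasone acetate and betamethasone phosphate), and the fetus was delivered 5 days later. There were 5 fetuses per group, with a gestational age at delivery of 130 to 135 days in CTL, 132 to 133 days in BAC and 131 to 136 days in CEL. Groups follow the library titles. The treatment and dose fields of the hippocampus libraries are the other way round, naming the mixture at 0.25 mg/kg for BAC and Beta-Ac at 0.125 mg/kg for CEL. For the 6 drug-treated animals that also have a lung library, the lung labels name the drug that the hippocampus title names. If the treatment fields were right, the names of both drugs below would swap, and the comparison of either group with controls would keep its values.

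Gene counts summed to 18.3 to 29.3 M reads in each library, and levels are reads for each 1 M reads counted (CPM), after TMM scaling. Genes of excitatory neurons were present in every library, with SLC17A7 between 508.6 and 955.3 CPM and NEUROD6 between 96.6 and 366.5 CPM. PROX1, a dentate granule cell factor, lay between 10.1 and 62.7 CPM, and ZBTB20, another hippocampal marker, between 0.371 and 2.21 CPM. The 12 hippocampal markers summed to 1350 to 1730 CPM in CTL, 1095.7 to 1702.6 CPM in BAC and 1576 to 1873.3 CPM in CEL. Neocortex markers summed to 252.9 to 361.7, 221.3 to 306.7 and 251.7 to 360.5 CPM. The part of dissection in the members' levels was not tested. Markers of the ganglionic eminence and basal forebrain summed to only 2 to 5.36 CPM. Control CTL212 stood apart. Its 5 matched choroid plexus markers summed to 1161.6 CPM, against 12.5 to 32.1 CPM in the other 14 libraries, and its meninges and vessel wall markers summed to 1069.5 CPM, against 307.9 to 678.1 CPM. Results are therefore also given without it. The libraries came from 4 sequencing runs. All drug-treated libraries and controls CTL113 and CTL212 came from runs that held all 3 groups. Run A held CTL113 with 3 BAC and 3 CEL libraries, and run B held CTL212 with 2 BAC and 2 CEL libraries. CTL092 and CTL101 (run C) and CTL209 (run D) came from runs that held only controls. In bulk tissue, fewer cells of a type and less RNA per cell cannot be told apart.

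Among the members, SPX was higher after the clinical drug. It is a gene of few reads, with 3 to 58 reads per library. Its level was 0.2, 0.817, 1, 0.119 and 0.56 CPM in CTL092, CTL101, CTL113, CTL209 and CTL212. It was 2.85, 1.13, 1.3, 2.06 and 2.53 CPM in CEL115, CEL120, CEL126, CEL238 and CEL245. Every CEL library lay above every control, with CEL120 (22 reads) and CTL113 (25 reads) closest to each other. In BAC128, BAC130, BAC136, BAC235 and BAC237 it was 0.831, 0.783, 1.48, 2.09 and 0.441 CPM. The BAC libraries thus spread over the range of both other groups. Group means were 0.54 ± 0.382 CPM in CTL, 1.12 ± 0.656 CPM in BAC and 1.97 ± 0.75 CPM in CEL (SD, n = 5). The fitted log2 fold change was 1.85 (standard error 0.52) for CEL against CTL, a 3.59-fold difference, and 1.85 (standard error 0.57) without CTL212. For BAC against CTL it was 1.03 (standard error 0.52), and for CEL against BAC 0.81 (standard error 0.49).

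The SPX difference was smaller where sequencing run was taken into account. In run A the 3 CEL libraries averaged 1.76 CPM and the single control 1 CPM, a log2 ratio of 0.81. In run B the pair of CEL libraries averaged 2.29 CPM and the single control, CTL212, 0.56 CPM, a log2 ratio of 2.03. CEL was thus the higher group within each run. With run as a term in the model the log2 fold change was 1.32 (standard error 0.64), and with only the 2 runs that hold all groups it was 1.34 (standard error 0.59). SPX did not pass the call thresholds in either of these fits, which called 137 and 14 of all 17390 genes tested higher. In both, the difference rests on CTL113 and CTL212 alone, since the other controls share no run with a drug library. They are thus not separate checks.

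SPX was the only member called for CEL against CTL, where genes were called by edgeR's quasi-likelihood test when they differed 1.5-fold or more, with p below 0.05 and a Benjamini-Hochberg adjusted p below 0.1. Of all genes tested, 2.50% were called higher and 5.35% lower in this comparison. SPX was also the only member whose CEL and CTL libraries did not overlap. It lay wholly higher, as did 5.07% of all genes. No member was called for BAC against CTL or CEL against BAC, where 0 of the 17390 genes (0%) were called in either comparison. In these comparisons 2133 and 2346 genes had an unadjusted p under 0.05, and DESeq2 called 149 and 186 genes. DESeq2 called no member for BAC against CTL and called GAD1 for CEL against BAC. The median log2 fold change of the 10 members was -0.21 for CEL against CTL, 0.09 for BAC against CTL and -0.21 for CEL against BAC, against -0.02, -0.01 and 0 for all genes. Since these contrasts were known when the members were chosen, these counts and medians are descriptive.

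**Figure D1:**
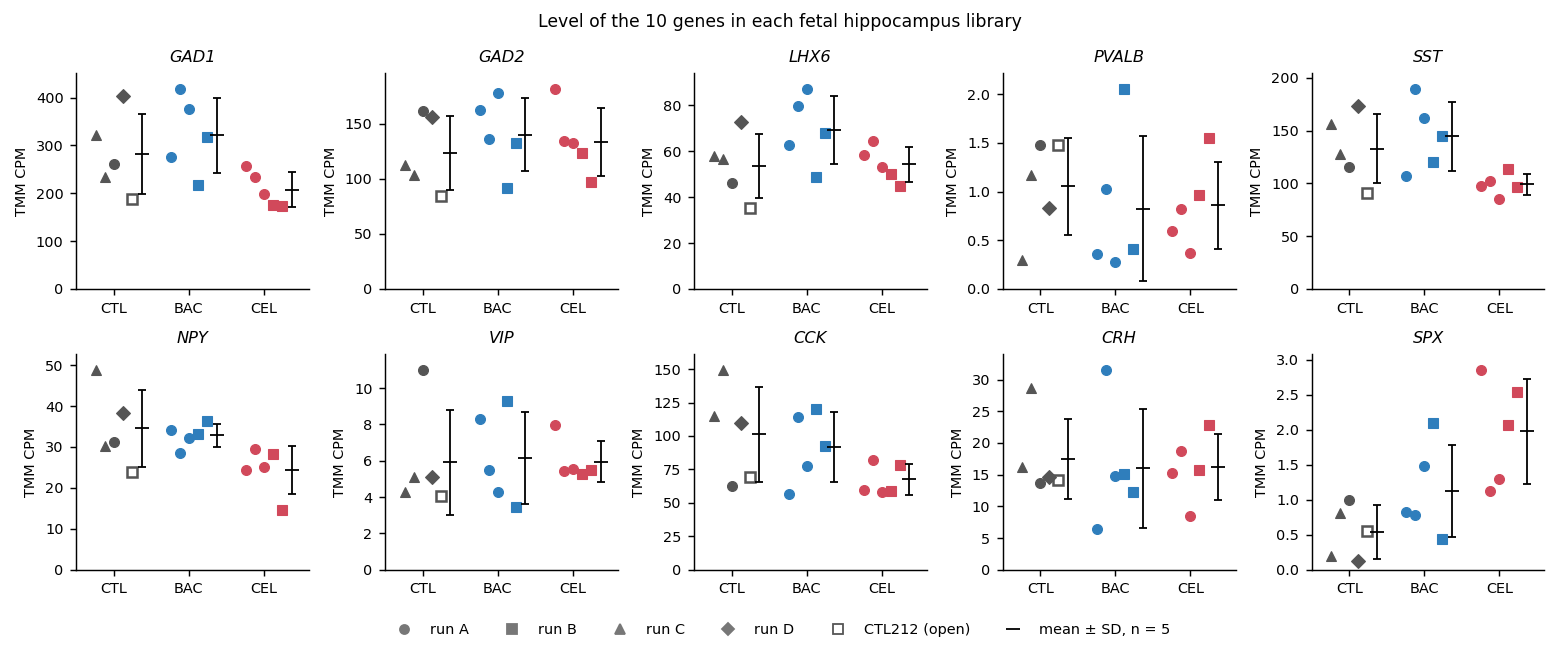
TMM-scaled CPM of the 10 members in each of the 15 hippocampus libraries (points, shaped by sequencing run, with CTL212 open), with the mean and SD of each group of 5 beside them. Each panel has its own linear axis from 0. For SPX every CEL point lies above every CTL point, and for GAD1 and SST the CEL points lie in the lower part of the range.

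GAD1 and GAD2 encode the cytosolic and the vesicle-associated form of glutamate decarboxylase. GAD1 was 321.3, 233, 261.1, 403.3 and 188 CPM in CTL092, CTL101, CTL113, CTL209 and CTL212. It was 276.5, 417.4, 375.4, 217.9 and 317.6 CPM in BAC128, BAC130, BAC136, BAC235 and BAC237. In CEL115, CEL120, CEL126, CEL238 and CEL245 it was 255.9, 234.4, 198.9, 175.9 and 173.1 CPM. CEL was the lowest group on average, although its libraries overlapped those of both other groups. Means were 281.3 ± 83.6 CPM in CTL, 320.9 ± 78.9 CPM in BAC and 207.7 ± 36.5 CPM in CEL (SD, n = 5). The log2 fold change of GAD1 was -0.63 (standard error 0.20) for CEL against BAC and -0.44 (standard error 0.20) for CEL against CTL, or -0.55 (standard error 0.19) without CTL212. GAD2 showed no such order. It averaged 123.8 ± 33.5, 140.4 ± 33 and 133.7 ± 30.7 CPM in CTL, BAC and CEL (SD, n = 5), and its log2 fold change for CEL against CTL was 0.11 (standard error 0.21). Both enzymes carry out the same reaction, and of the pair GAD1 alone had its lowest mean after the clinical drug. Whether the genes differed in their response was not tested.

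LHX6 followed GAD1 in part. It was 57.8, 56.6, 46.1, 72.7 and 35.5 CPM in the controls in the order above, with CTL212 the lowest library of all. In BAC it ranged from 48.8 to 87.1 CPM, and in CEL from 45 to 64.7 CPM. The log2 fold change was 0.37 (standard error 0.18) for BAC against CTL and -0.35 (standard error 0.18) for CEL against BAC, and 0.02 (standard error 0.18) for CEL against CTL. BAC was thus the highest group, with overlap throughout. PVALB had 6 to 53 reads per library, between 0.278 and 2.05 CPM, and its standard errors of 0.55 or more made its differences the least certain of the members.

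SST, a peptide of dendrite-targeting interneurons, was 156.4, 127.9, 115.7, 173 and 91.3 CPM in CTL092, CTL101, CTL113, CTL209 and CTL212. It was 106.6, 189.1, 161.7, 119.9 and 145.1 CPM in the BAC libraries and 97.8, 101.8, 85.3, 113.3 and 96.4 CPM in the CEL libraries. The CEL values lay close together, with an SD of 10.1 CPM against 32.4 in CTL and 32.9 in BAC. Only CTL212 among the controls lay within the range of CEL. The log2 fold change was -0.43 (standard error 0.17) for CEL against CTL, -0.53 (standard error 0.16) without CTL212 and -0.55 (standard error 0.17) for CEL against BAC. BAC against CTL gave 0.12 (standard error 0.17). Markers of striatum, which is rich in GABAergic neurons, were likewise lowest in CEL by their median sum. The 6 matched ones summed to 76.7 to 191.4 CPM in CTL, 58.4 to 161.1 CPM in BAC and 53.6 to 78.7 CPM in CEL, with ISL1 at 0 reads in CEL. The highest sum, 191.4 CPM, was that of CTL212, the control lowest in GAD1 and SST. Of 5 tested, RGS9 and PDE10A were called lower for CEL against CTL, and the median log2 fold change was -0.64. Their part in the levels of GAD1 and SST was not tested.

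NPY, often made together with SST, was 48.8, 30.3, 31.2, 38.4 and 24 CPM in the controls, and 24.3, 29.6, 25.1, 28.3 and 14.7 CPM in CEL115, CEL120, CEL126, CEL238 and CEL245. Apart from CTL212, every control lay above every CEL library. BAC lay between 28.6 and 36.4 CPM, with the smallest spread of the groups (32.9 ± 2.9 CPM, SD, n = 5). The log2 fold change for CEL against CTL was -0.50 (standard error 0.19), and -0.61 (standard error 0.18) without CTL212. CEL against BAC gave -0.43 (standard error 0.19).

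CCK was 115.3, 149.3, 62.9, 110 and 69.5 CPM in the controls and lay between 56.3 and 119.8 CPM in BAC and between 58.4 and 82.3 CPM in CEL. Its log2 fold change for CEL against CTL was -0.59 (standard error 0.24), and -0.70 (standard error 0.24) without CTL212. The controls fell apart by run. The 3 controls of the runs without drug libraries had 110 to 149.3 CPM, and the 2 controls sequenced with the drug libraries had 62.9 and 69.5 CPM, within the range of CEL.

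VIP and CRH showed little difference between group means. VIP averaged 5.92 ± 2.89, 6.17 ± 2.54 and 5.95 ± 1.13 CPM in CTL, BAC and CEL (SD, n = 5), with 11 CPM in CTL113 and 4.08 to 5.12 CPM in the other controls. CRH averaged 17.4 ± 6.31, 16 ± 9.35 and 16.2 ± 5.25 CPM, and single libraries ranged from 6.39 CPM (BAC128) to 31.5 CPM (BAC130). For CEL against CTL the log2 fold changes were 0.00 (standard error 0.31) for VIP and -0.11 (standard error 0.35) for CRH. These standard errors do not show that the levels were alike.

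Leaving out CTL212 raised the number of members called for CEL against CTL from 1 to 3, adding NPY and CCK as lower. It also raised the number with no overlap between CEL and CTL to 3, adding SST and NPY as lower. Of all 17300 genes then tested, 2.83% were called higher, 5.01% were called lower, 7.48% lay wholly higher and 13.2% wholly lower. CTL212 was the lowest control for GAD1, GAD2, LHX6, SST, NPY and VIP. The share of its choroid plexus and meningeal RNA in these values was not tested.

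Taking sequencing run into account moved several comparisons with controls as well. Here CTL092, CTL101 and CTL209 do not inform the difference, because their runs held no drug library. It rests on CTL113 and on CTL212, the control high in choroid plexus markers. With run as a term, the log2 fold change for CEL against CTL was -0.15 (standard error 0.18) for GAD1, -0.07 (standard error 0.19) for SST, -0.19 (standard error 0.23) for NPY and 0.05 (standard error 0.24) for CCK. For LHX6 it was 0.38 (standard error 0.15). These 5 values lay above those without the term. GAD2 stayed at 0.11 (standard error 0.18), CRH was at 0.22 (standard error 0.48), and VIP and PVALB were lower, at -0.32 (standard error 0.38) and -0.84 (standard error 0.64). For BAC against CTL, the term raised LHX6 to 0.73 (standard error 0.15), SST to 0.47 (standard error 0.20), GAD1 to 0.48 (standard error 0.19) and CCK from -0.14 to 0.49 (standard error 0.25). For SPX that comparison went from 1.03 to 0.51 (standard error 0.63). No member was called in either comparison with this term. Of all 17390 genes tested, it gave 137 called higher and 821 lower for CEL against CTL. For BAC against CTL it gave 0 called, so the lack of a call there says nothing particular about the members. Within run A, the log2 ratio of the CEL mean to the single control was -0.18 for GAD1, -0.29 for SST, -0.24 for NPY and 0.09 for CCK. Within run B, where that control was CTL212, it was -0.11, 0.20, -0.16 and -0.02. Within runs, CCK was thus at about the level of the control in CEL, and SST was lower than the control in run A and higher in run B. For LHX6, the controls sequenced with the drug libraries had 35.5 and 46.1 CPM and the other controls 56.6 to 72.7 CPM. For SST these values were 91.3 and 115.7 CPM, and 127.9 to 173 CPM. Of the 10 members, 4 had the controls sequenced with the drug libraries wholly below the other controls (LHX6, SST, CCK and CRH). For 1, PVALB, they lay wholly above. With so few controls such separation is easily met, and its share over all genes was not counted. Run and animal cannot be told apart among the controls.

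The difference between the drug groups does not rest on control levels, and both groups had 3 libraries in run A and 2 in run B. Drug form and dose differed together. There GAD1 was lower with CEL in both runs, with a log2 ratio of means of -0.63 and -0.62, and no CEL library reached a BAC library of its run. SST gave -0.68 and -0.34, likewise without overlap within a run. These were the 2 members with every CEL library below every BAC library within each run, a measure chosen after the values were seen, and 2.99% of all genes tested met it. For NPY the within-run ratios were -0.26 and -0.70, for CCK -0.31 and -0.63, for LHX6 -0.38 and -0.30, and for SPX 0.77 and 0.86. Because both drug groups had the same number of libraries in each run, a run term could hardly move the fitted values. With it they were -0.63 (standard error 0.14) for GAD1, -0.54 (standard error 0.15) for SST and 0.81 (standard error 0.45) for SPX. Their standard errors draw on the spread over all 15 libraries, controls included.

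**Figure D2:**
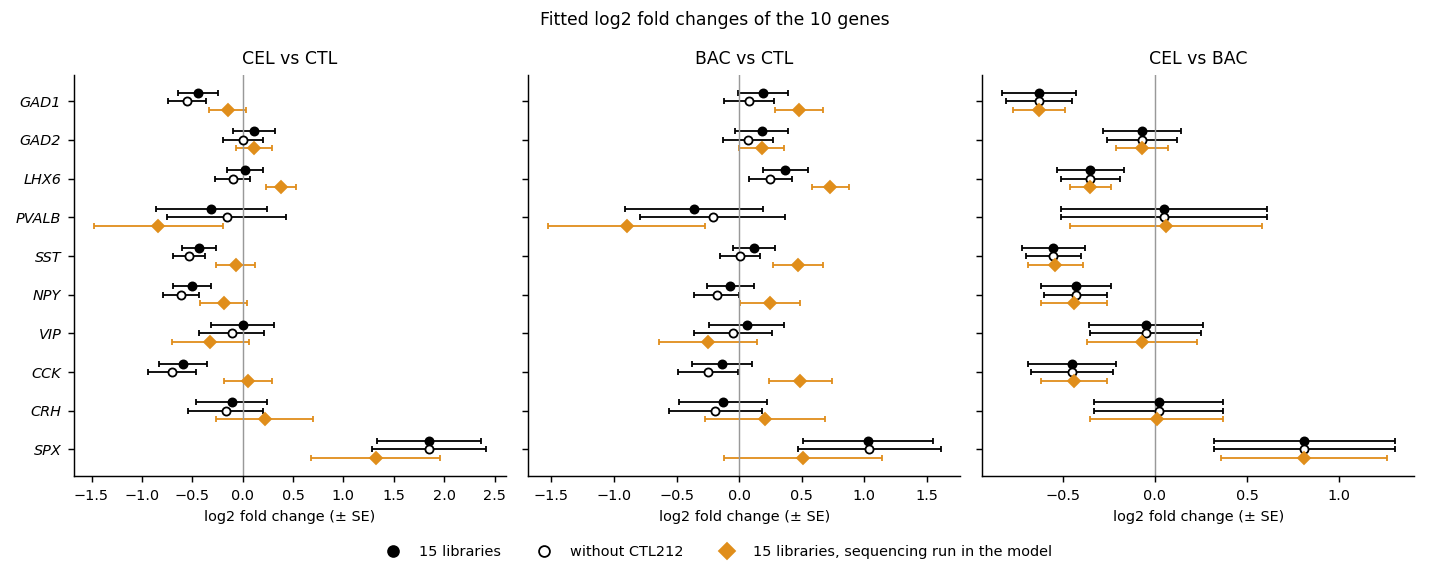
Fitted log2 fold changes of the 10 members with their standard errors for the 3 comparisons, from all 15 libraries (filled circles), without CTL212 (open circles) and with sequencing run in the model (diamonds). For SST and CCK the values against CTL move towards or above 0 with run in the model. In CEL against BAC the 3 estimates nearly coincide. The design leaves little room for them to differ, since CTL212 is in neither group and both drug groups had the same number of libraries in each run. The diamonds against CTL rest on CTL113 and CTL212.

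Members also varied together between animals of a group. This was examined on log2 CPM after subtracting group means, which leaves out the contrasts on which the list was chosen. Over the 15 libraries, 8 pairs were tested by permutation within groups (two-sided, 100000 permutations, Benjamini-Hochberg over the 8). Libraries were exchanged across sequencing runs, so differences between runs remain in these p-values, which are approximate. GAD1 and LHX6 were the most closely related pair, with Pearson's r = 0.91 (permutation p = 0.00012, adjusted 0.00096) and Spearman's rho = 0.89 (permutation p = 0.00022, adjusted 0.00176). LHX6 and SST gave r = 0.78 (permutation p = 0.00513, adjusted 0.0205) and rho = 0.81 (permutation p = 0.00238, adjusted 0.00952). GAD1 and GAD2 gave r = 0.72 (permutation p = 0.00815, adjusted 0.0217) and rho = 0.71 (permutation p = 0.00924, adjusted 0.0246). Libraries with more GAD1 thus also had more LHX6 and more GAD2, and those with more LHX6 had more SST. Without the 2 libraries farthest from the median of the first gene, r was 0.85, 0.62 and 0.61 for these pairs.

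Fewer pairs passed without CTL212 and with run taken into account. Without CTL212, r was 0.89 for GAD1 and LHX6 (permutation, adjusted p = 0.00504), and 0.68 for LHX6 and SST and 0.64 for GAD1 and GAD2 (permutation, adjusted p = 0.0754 for both). With run means also removed, r was 0.79, 0.77 and 0.42 (permutation, adjusted p = 0.0668, 0.0668 and 0.29), so that no pair passed an adjusted p of 0.05. These permutations, like those of the main test, ran within groups and across runs, and CTL209, alone in its run, was here left without variation. The p-values are thus approximate in both. Those with run means removed do not show that the relations were lost.

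The other 5 pairs did not pass. SPX and NPY gave r = -0.52 (permutation p = 0.0682, adjusted 0.109) and rho = -0.62 (permutation p = 0.0267, adjusted 0.0534), with r = -0.50 without the 2 extreme libraries. SST and CRH gave r = 0.53 (permutation p = 0.0617, adjusted 0.109) and rho = 0.45 (permutation p = 0.131, adjusted 0.2), with r = 0.41 without the extremes. SST and NPY, peptides often found in the same cells, gave r = 0.38 (permutation p = 0.162, adjusted 0.216) and rho = 0.40 (permutation p = 0.15, adjusted 0.2), with r = 0.36 without the extremes. For CCK and VIP, r was -0.28 (permutation p = 0.426, adjusted 0.487) and rho -0.03 (permutation p = 0.93, adjusted 0.93), and r was 0.29 without the extremes. For SPX and CCK, r was -0.15 (permutation p = 0.666, adjusted 0.666) and rho -0.07 (permutation p = 0.831, adjusted 0.93), and r was -0.08 without the extremes. Over all 45 pairs of members r ranged from -0.58 to 0.91 with a median of 0.17, so the members did not move as a single block.

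**Figure D3:**
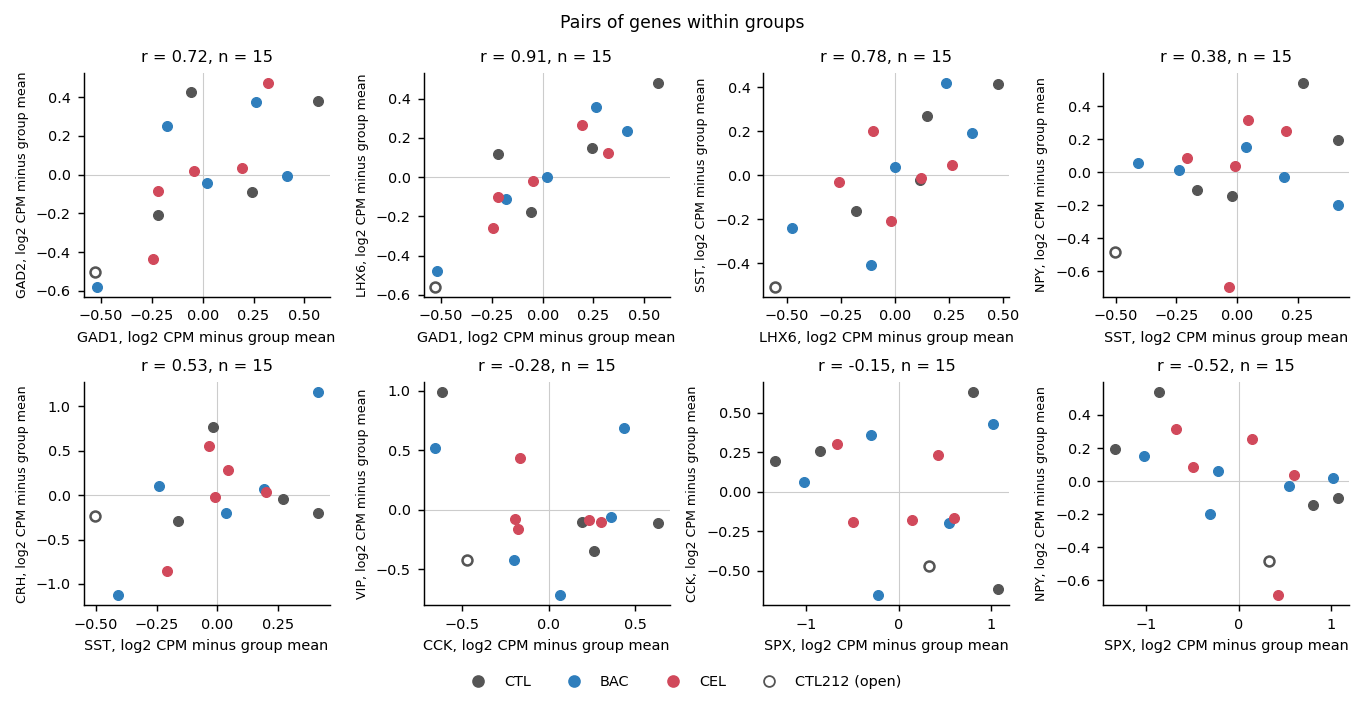
Log2 CPM minus the group mean for the 8 pairs of members tested, with each of the 15 libraries as a point coloured by group and CTL212 open. The points of GAD1 and LHX6 lie close to a line (r = 0.91), with CTL212 at its lower end, whereas those of SPX and CCK do not (r = -0.15).

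For 6 of the members, the genes whose log2 CPM followed them most closely over the 15 libraries, group differences included, were taken from 12042 genes with a symbol and a mean of at least 1 CPM. These are descriptions, and the libraries share runs and groups. For GAD1 they were NRG1 (Pearson's r = 0.94), ADSS2 (0.91) and NRSN2 (0.89). For LHX6 they were NEGR1 (0.91), KCND1 (0.90) and CD200 (0.90), and for SST ADCY5 (0.93), TOX2 (0.90) and FOXP4 (0.89). SPX was followed by GPR89A (0.87), MKX (0.86) and SNX3 (0.85). NPY was followed by RRAGB (0.86), SLC25A47 (0.84) and CD36 (0.84), and CRH by ATP6V1C2 (0.86), SOBP (0.85) and NANOS1 (0.85).

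Around the members, 6 further lists covered GABA handling, interneuron lineage factors, interneuron subtype markers, other neuropeptides, peptide receptors and peptide processing. Of their 100 genes, 81 were matched to an identifier and 76 tested. For CEL against CTL, 6 of the 76 were called lower and none higher (edgeR), where 5.35% of all genes were called lower and 2.50% higher, and the median log2 fold change was -0.12, against -0.02 over all genes. For BAC against CTL and CEL against BAC none was called by edgeR, while DESeq2 called NOS1 in the former and CRHR1 in the latter.

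The counts by list that follow are small and are to be read against that share of all genes. The lists were drawn up with earlier results of these data known, and the p-values of their genes are to be read with that limit. Lack of overlap is described for genes already called, which makes it more likely. Without CTL212, 13.2% of all genes lay wholly lower in CEL than in CTL, and this share was not counted with CTL212. Of 20 subtype markers tested, 3 were called lower for CEL against CTL. CALB2 encodes calretinin, a calcium-binding protein of interneurons that contact other interneurons, and is also expressed in thalamus. It averaged 19.4 ± 9.02 CPM in CTL and 6.98 ± 1.71 CPM in CEL (SD, n = 5), with 12.8 to 35.3 CPM in controls and 5.26 to 8.88 CPM in CEL, so that the groups did not overlap. Its log2 fold change was -1.48 (standard error 0.34, edgeR adjusted p = 0.0175). Markers of thalamus, CALB2 among them, summed to 96.9 to 254.6 CPM in CTL and 102.6 to 136.6 CPM in CEL, and their part in this difference was not tested. RELN, the secreted glycoprotein of Cajal-Retzius cells and of some interneurons, averaged 474.4 ± 111.3 CPM in CTL and 274.7 ± 61.4 CPM in CEL (SD, n = 5), without overlap. The log2 fold change of RELN was -0.79 (standard error 0.23, edgeR adjusted p = 0.0373). NOS1, neuronal nitric oxide synthase, averaged 23 ± 6.32 CPM in CTL and 13 ± 1.2 CPM in CEL (SD, n = 5), again without overlap. This was a difference of -0.82 on the log2 scale (standard error 0.23, edgeR adjusted p = 0.0311).

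Of 15 lineage factors tested, ERBB4, the neuregulin receptor of migrating interneurons, was called lower, with 8.98 to 15.7 CPM in CTL and 5.68 to 8.08 CPM in CEL. Its log2 fold change was -0.75 (standard error 0.18, edgeR adjusted p = 0.0195). ZEB2, a factor of interneuron fate that is also expressed in glia, is named after its values were seen. It differed by 0.49 on the log2 scale (standard error 0.14, edgeR adjusted p = 0.0327), under the fold threshold. Of 5 genes of GABA handling tested, SLC6A11, the glial GABA transporter GAT-3, was called lower, with 53.1 to 90 CPM in CTL and 37.3 to 50 CPM in CEL, -0.73 on the log2 scale (standard error 0.19, edgeR adjusted p = 0.0265). For SLC32A1, the vesicular GABA transporter, the difference was -0.10 (standard error 0.16). Astrocyte markers summed to 2444.2 to 3713.7 CPM in CTL, 2471.3 to 4399.2 CPM in BAC and 3488.1 to 4788 CPM in CEL. Of 6 tested, AQP4 alone was called higher for CEL against CTL, and none was called lower. Their part in the level of SLC6A11 was not tested.

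Of 10 peptide receptors tested, CRHR1, the main brain receptor of CRH, was called lower, while its ligand had a log2 fold change of -0.11. CRHR1 was 24.8, 19.8, 11.8, 23.7 and 9.16 CPM in the controls and 5.11, 14.8, 9.27, 6.91 and 9.09 CPM in CEL, with CTL113 and CTL212 inside the range of CEL. Its log2 fold change was -0.98 (standard error 0.30, edgeR adjusted p = 0.0419), and without CTL092 it was -0.84 and not called (edgeR adjusted p = 0.102). CRHR1 was also lower in CEL than in every BAC library (15 to 24.1 CPM), where the log2 fold change was -1.03 and edgeR's adjusted p was 0.225.

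None of the 18 other neuropeptides tested was called, although 15 had a negative log2 fold change, with a median of -0.19 for CEL against CTL, where 51.9% of all genes were negative. The smallest p-values belonged to SCG3, a granule protein, with -0.38 (edgeR adjusted p = 0.15), and TAC3, with -0.56 (edgeR adjusted p = 0.209). None of the 8 peptide processing genes was called either, with -0.31 for PAM, the amidating enzyme (edgeR adjusted p = 0.159), and -0.21 for the protease FURIN (edgeR adjusted p = 0.162).

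With sequencing run as a term, only ERBB4 of the 6 called genes was still called, together with NDNF, and with only the 2 runs that hold all groups none was. Of all 17390 genes tested, the former fit called 137 higher and 821 lower, and the latter 14 higher and 215 lower. Both fits again set the drug libraries against CTL113 and CTL212 alone. CALB2 then had log2 fold changes of -1.07 and -1.08 (edgeR adjusted p = 0.109 and 0.176), RELN -0.87 and -0.86 (0.12 and 0.194) and NOS1 -0.68 and -0.63 (0.195 and 0.256). For SLC6A11 the values were -0.42 and -0.40 (edgeR adjusted p = 0.266 and 0.375), and for CRHR1 -0.24 and -0.20 (0.643 and 0.751). In both shared runs the CEL mean of CALB2 was below the control, with 5.76 against 12.8 CPM in run A and 8.81 against 17.3 CPM in run B. For CRHR1 these values were 9.74 against 11.8 CPM and 8 against 9.16 CPM. Without CTL212, all 6 genes were called, and SNCG and VIPR2 were called lower as well. Without CTL209, ERBB4 was not called, with -0.58 and an edgeR adjusted p of 0.0473, just under the fold threshold.

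**Figure D4:**
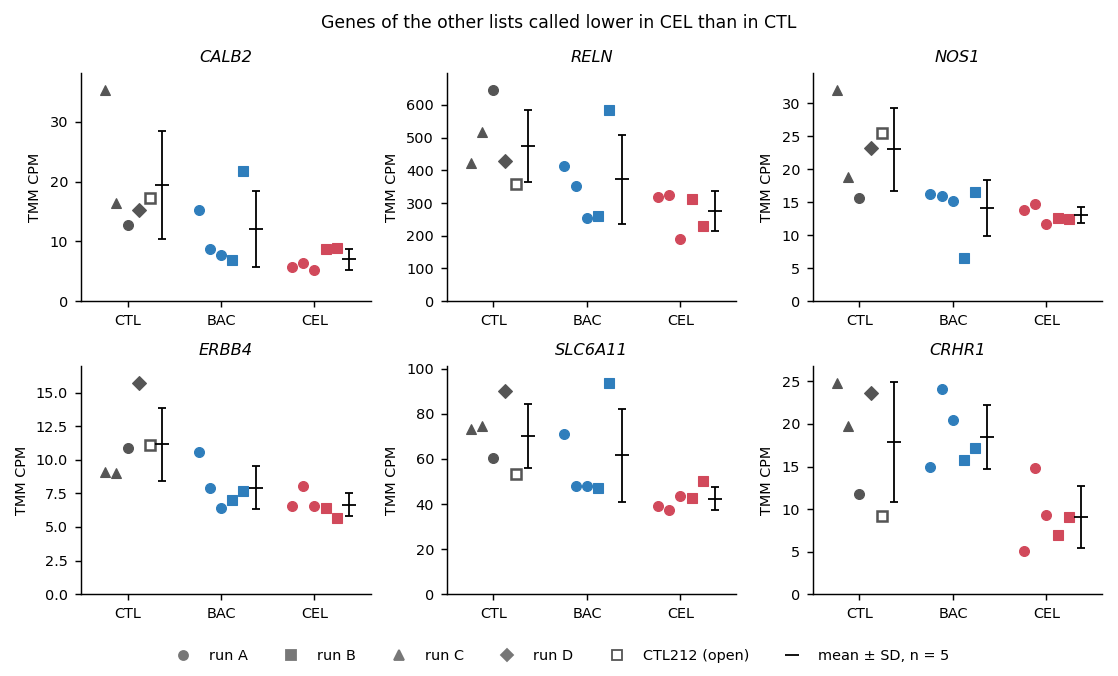
TMM-scaled CPM in each of the 15 hippocampus libraries of the 6 genes from the other lists called lower for CEL against CTL, drawn as in the plot of the members. CEL lies below all controls for every gene except CRHR1, where CTL113 and CTL212 lie within the range of CEL. The genes were drawn because they were called, so this separation is a description.

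In lung libraries from 15 fetuses of the same study (14.1 to 45 M reads each), 9 of the members were matched, and 9 animals had both tissues. LHX6 was present in all lung libraries at 23.3 to 44 CPM and CRH at 1.15 to 9.92 CPM. GAD1 had 0.253 to 1.5 CPM, SST reached 3.09 CPM, and VIP reached 0.952 CPM. GAD2 had at most 2 reads, NPY at most 3 and PVALB at most 4, and CCK had 0 reads in all 15. Most of these genes were thus near or at 0 in lung, LHX6 and CRH being the exceptions. SPX was not analysed here in lung.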

How the data were processed

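Hippocampus and lung RNA of rhesus macaque fetuses was sequenced from poly(A) libraries as 75 bp paired-end reads. The deposited values are counts of whole reads per Ensembl gene, which the authors made with featureCounts. Their processing notes name Bowtie2 for hippocampus and Bowtie for lung. The study's methods name the genome build MMUL1.0 without a tissue. The annotation release and the use of strand are not given in the sources used here, and RefSeq places non-coding genes over GAD1 and SST whose reads may not be told apart from theirs. Symbols came from the reference name table.

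Here counts were scaled by TMM and tested with edgeR 4.0.16 (quasi-likelihood, R 4.3.3) in a single fit of 15 hippocampus libraries, for genes whose reads reached 7 in 5 or more libraries. A call required a 1.5-fold difference, p below 0.05 and a Benjamini-Hochberg adjusted p below 0.1. The prior count was 0.125 for fold changes and 2 for log2 CPM. Replicates are separate fetuses. Libraries of a group differed by 14.6 to 261 times the counting variance (chi-square per degree of freedom), so none was a duplicate, and over all genes the spread between animals exceeded counting error. For SPX and PVALB, with few reads, counting error also counts.

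The members and lists were chosen with earlier results of these data known. All 10 members are named. From each other list, up to 4 called genes with the largest change, or else up to 2 with the smallest p, are named. Likeness lists the 3 genes with the highest r. Alternatives were RLE scaling, filterByExpr, no filter, DESeq2 1.42.0, 2-group fits, sequencing run, gestational age, shared runs, no fold threshold and each library left out. Comparisons within runs of the drug groups were added after the data were seen. Lung was described without a test. No sequences are printed.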

Additional observations from a re-analysis of the deposited data

Results flagged for a closer look

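A single library stood far from the other 4 of its group, by Dixon's ratio, in 10 of 84 groups checked over the members, the called genes of the other lists and the summed markers of other regions and cell types. Chance flags about 1 in 20. Among members these were VIP in CTL113 (11 CPM, next 5.12) and in CEL115 (7.96 CPM, next 5.55), and CRH in CTL101 (28.6 CPM, next 16.2). Among genes of the other lists they were CALB2 in CTL092 (35.3 CPM, next 17.3) and, as a low value, NOS1 in BAC235 (6.57 CPM, next 15.2). The choroid plexus markers of CTL212 summed to 1161.6 CPM (next 17.1). BAC130 had the highest sums in its group of striatum markers (161.1 CPM, next 81.1) and of ganglionic eminence and basal forebrain markers (5.36 CPM, next 3.24), and also the highest GAD1, SST and CRH of BAC. CEL120 had the highest sums in its group of hypothalamus markers (6.79 CPM, next 3.82) and of neocortex markers (360.5 CPM, next 272.5). The part of these markers in the members' levels was not tested.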

How the results depend on the processing

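For CEL against CTL, 1366 genes were called, but 958 with sequencing run as a term, 229 with only the 2 runs that hold all groups and 3816 without a fold threshold. Members called were 1, against 0 with sequencing run as a term and with only the 2 shared runs, 2 with only the 2 groups compared (CCK added) and 2 without a fold threshold (NPY added), and 1 to 3 with each library left out. It was 2 without CTL113, BAC128 or BAC235 (CCK added each time) and 3 without CTL212. Of the other lists 6 genes were called, against 2 with run as a term and 0 with only the shared runs. For BAC against CTL, 0 genes were called, against 149 with DESeq2 (1 of the other lists), 19 with only the shared runs and 0 to 184 with each library left out, 184 being without BAC128. For CEL against BAC, 0 were called, against 186 with DESeq2 (1 member and 1 gene of the other lists) and 13 with run as a term. Members whose CEL and CTL libraries did not overlap numbered 1 under each scaling and 3 without CTL212. Pairs passing an adjusted p of 0.05 numbered 3, against 0 with run means removed and 1 to 4 with each library left out (1 without CTL212). The r of CCK with VIP and of SPX with CCK changed sign with run means removed (0.03 and 0.17) and without CTL113 (0.04 and 0.06), ranging from -0.50 to 0.04 and from -0.36 to 0.06 with each library left out. The cause was not tested. The SPX log2 fold change for CEL against CTL stayed between 1.32 and 2.18 in all 24 alternatives. Of 1008 values of single genes and pairs recomputed, 969 kept their direction and side of the threshold or moved by less than 1 SD. This is a loose measure, since the SD is that between animals. GAD1 for CEL against CTL counts as kept although it went from -0.44 to -0.1 with only the shared runs. Many alternatives also leave out a library of a group outside the comparison. No paired analysis was possible because the groups share no animal numbers. SPX and PVALB, with as few as 3 and 6 reads in a library, are the members most limited by depth.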

Other observations

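The genes next to each member in RefSeq order on the rhesus assembly were examined after the members' values were seen. Of 20 neighbours, 14 were tested in hippocampus, and 2 were called for CEL against CTL, where 2.50% of all genes were called higher and 5.35% lower. GOLT1B, beside SPX and not overlapping it, averaged 31.1 ± 11.5 CPM in CTL, 45.9 ± 13.9 CPM in BAC and 51.1 ± 14.4 CPM in CEL (SD, n = 5), and the groups overlapped. Its log2 fold change was 0.71 (standard error 0.27, edgeR adjusted p = 0.0847), and 0.62 without CTL212, where it was not called (edgeR adjusted p = 0.151). ERICH2, beside GAD1, differed by -0.67 on the log2 scale (standard error 0.21, edgeR adjusted p = 0.0509).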
